A study of Rattus norvegicus with 9 samples.

Results

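The genes described here are 9 markers of striatal neurons and of dopamine signalling, namely Drd1, Drd2, Adora2a, Gpr6, Ppp1r1b, Pde10a, Rgs9, Rasd2 and Six3, followed through rat hippocampal RNA-seq libraries. They were found by their symbols, and all 9 had 1 row each among the 21138 genes of the deposited table. The genes were chosen on measured values, since the FPKM of these same libraries and their fitted differences were known when the list was drawn up. Their levels and differences are therefore given as a description, with no test. FPKM is the number of sequenced fragments per kilobase of transcript, scaled to all mapped fragments of the library, so levels can be compared between genes of different length.

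The libraries came from wild-type male Sprague-Dawley rats aged 6 months, and hippocampus was taken on day 56. The CK group received normal saline and served as the control, the VD group received normal saline after both common carotid arteries had been tied (a model of vascular dementia), and the INS + VD group received insulin by nasal spray after the same ligation. Each group had 3 libraries, which the methods call biological replicates; whether a library was made from a single rat is not given in the sources used here, so part of the spread between libraries may be technical. No sham-operated library was analysed here, so ligation and surgery cannot be told apart in the comparison of VD with CK.

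Medium spiny neurons are the projection neurons of the striatum. Those of the direct pathway carry the D1 dopamine receptor, which raises cAMP, and those of the indirect pathway carry the D2 receptor, which lowers it, together with the adenosine receptor encoded by Adora2a. DARPP-32, the product of Ppp1r1b, passes the cAMP signal on by inhibiting protein phosphatase 1 once protein kinase A has phosphorylated it, and PDE10A breaks cAMP and cGMP down. In the hippocampus these genes are known at far lower levels than in the striatum, with dopamine receptors on part of the neurons.

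Promoters are shown for 2 receptors because their profiles over the libraries lay at opposite ends: Gpr6, an orphan receptor of the indirect pathway that raises cAMP without a ligand, had the profile nearest to the mean of the 9 genes, and Drd2 had one of the 2 farthest from it. RefSeq promoters on GRCr8, from 250 bases before to 50 after the annotated start, matched 7 of the 9 genes in 8 windows, and Adora2a and Ppp1r1b were without an entry. Gpr6 lies on the minus strand at chr20:46075202-46075501 and Drd2 on the plus strand at chr8:58605153-58605452. Capitals mark the cAMP response element TGACGTCA in Gpr6 and the GC box GGGCGG, read on either strand, in Drd2.
Gpr6: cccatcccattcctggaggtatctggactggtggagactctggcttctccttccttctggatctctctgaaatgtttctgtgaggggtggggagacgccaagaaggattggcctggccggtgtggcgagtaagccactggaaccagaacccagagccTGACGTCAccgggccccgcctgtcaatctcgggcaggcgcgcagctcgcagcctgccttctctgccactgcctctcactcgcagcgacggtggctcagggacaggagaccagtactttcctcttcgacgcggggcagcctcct
Drd2: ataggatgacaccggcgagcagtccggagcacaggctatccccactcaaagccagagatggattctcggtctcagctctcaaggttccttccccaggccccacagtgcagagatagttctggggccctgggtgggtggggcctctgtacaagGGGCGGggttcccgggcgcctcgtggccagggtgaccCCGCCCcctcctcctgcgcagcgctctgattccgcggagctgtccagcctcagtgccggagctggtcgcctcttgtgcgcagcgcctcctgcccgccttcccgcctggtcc

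Both strands of each window were searched for TGACGTCA, its shorter form TGACG, the GC box GGGCGG, the TATA box TATAAA and the homeodomain core TAATTA. TGACGTCA was present in 1.83% of all 33469 rat promoters of the same length, and among the 8 windows only that of Gpr6 held it. The shorter TGACG, which was counted on both strands inside TGACGTCA, was in 21.2% of all promoters and also occurred 2 times in 1 of the 2 windows of Pde10a. GGGCGG was in 33.1% of all promoters, and was found 2 times each in Drd2, in Rgs9 and in 1 window of Pde10a, 1 time in the other and 3 times in Rasd2. No window held TATAAA or TAATTA, which were in 14.2% and 5.36% of all promoters, and those of Drd1 and Six3 held none of the 5 motifs. The window matched to Six3 lies on the minus strand, whereas the deposited position of Six3 is on the plus strand. Whether that window is the promoter of Six3 was not checked. A match describes the letters only.

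The libraries stood apart from each other in markers of brain regions, which bears on every value below. Of 10 markers of hippocampal excitatory neurons, Dsp, Tdo2, Fibcd1 and Spink8 reached at most 0.673 FPKM in any library. The highest level of the other 6 was 9.65 FPKM for Prox1, 24.4 for Pou3f1, 30.8 for C1ql2, 53.3 for Neurod6, 197 for Wfs1 and 395 for Cpne6, genes that are also used by neurons of other regions. CK replicate 3 held the cerebellar granule cell receptor gene Gabra6 at 501 FPKM, against at most 0.88 elsewhere. VD replicate 2 held the hindbrain gene Hoxb5 at 24.0 FPKM, against 0 elsewhere, VD replicates 1 and 3 held the olfactory bulb gene Doc2g at 101 and 128 FPKM, against at most 3.99 elsewhere, and INS + VD replicate 1 held the choroid plexus gene Ttr at 1635 FPKM, against at most 4.57 elsewhere. The part of these differences in the levels of the 9 genes was not tested. In bulk tissue, fewer cells of a type and less RNA per cell cannot be told apart. VD replicate 1 had 14428 genes above 0, whereas all other libraries had 17441 to 18088, so a gene at 0 in VD replicate 1 is only listed at 0.

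The low values of 7 of the 9 genes fell on whole multiples of 1 fragment, within 0.02 of a whole number, and by these steps the depth of the libraries lay between 91.9% and 101.7% of that of CK replicate 1. Fragment numbers below are the smallest whole numbers that match the steps, and a common multiple of them would match as well. Ppp1r1b and Rasd2 were too abundant for such steps to be read. Total fragment numbers were not analysed here.

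Drd1, the D1 receptor of the direct pathway, had 14.3, 4.09 and 0.472 FPKM in CK replicates 1 to 3, 0.460, 0.148 and 1.62 across VD in the same order, and 8.64, 2.30 and 19.2 across INS + VD. All 3 INS + VD libraries lay above all 3 VD libraries, while CK spanned nearly the whole range and its replicate 3 lay within the VD values. The level in VD replicate 2 rested on only 6 fragments, that in VD replicate 1 on 17 and that in CK replicate 3 on 18. VD replicate 3 had 63 fragments and CK replicate 2 had 160. The group means were 6.28 ± 7.15 (SD, n = 3) for CK, 0.741 ± 0.773 for VD and 10.1 ± 8.56 for INS + VD. Drd1 varied 130-fold between its highest and lowest library, and its within-group SD was as large as or close to the mean in every group.

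Drd2, the D2 receptor, which also sits on dopamine neurons as an autoreceptor, had 4.92, 1.89 and 0.427 FPKM across CK, 1.28, 4.76 and 1.52 across VD, and 4.34, 17.8 and 9.57 across INS + VD. CK and VD overlapped throughout, and INS + VD overlapped both only through its replicate 1. The group means were 2.41 ± 2.29 (SD, n = 3) for CK, 2.52 ± 1.95 for VD and 10.6 ± 6.81 for INS + VD. The order of the group means thus placed INS + VD first, with CK and VD closer to each other than their SD.

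The 2 dopamine receptors did not keep 1 ratio. Drd1 divided by Drd2 was 2.90, 2.16 and 1.11 across CK, 0.360, 0.0311 and 1.06 across VD, and 1.99, 0.129 and 2.01 across INS + VD. Drd1 was the higher of the 2 in every library except VD replicates 1 and 2 and INS + VD replicate 2. The highest Drd2 level, in INS + VD replicate 2, was in the library with the dopamine neuron genes Th, encoding the rate-limiting enzyme of dopamine synthesis, at 121.7 FPKM and Slc6a3, encoding the dopamine transporter, at 107.7 FPKM. In the other 8 libraries Th was between 0.07 and 36.7 FPKM and Slc6a3 was at most 3.09 FPKM. The second library with low Drd1 and high Drd2, VD replicate 2, was the one with hindbrain Hox genes and had Slc6a3 at 0.02 FPKM. The vesicular transporter gene Slc18a2 was at 52.7 FPKM in INS + VD replicate 2 and at 2.67 to 5.63 FPKM elsewhere, and Ddc, encoding the enzyme that makes dopamine from L-DOPA, at 24.8 and at 1.19 to 3.69 FPKM. The part of dopamine neuron RNA in the Drd2 level was not tested. CK replicate 3 and the replicates 2 of VD and INS + VD held the cerebellar, hindbrain or dopamine neuron genes. Without these 3 libraries, a choice made after seeing the data, the fitted log2 difference of Drd2 between INS + VD and CK was 0.86 in place of 1.81. That between VD and CK was -0.79 in place of 0.15. VD was then left with replicates 1 and 3, the libraries that held the olfactory bulb gene Doc2g. Between INS + VD and VD the Drd2 difference was 1.67 in the main fit and stayed between 1.23 and 2.14 in all 17 alternatives, this omission among them.

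**Figure D1:**
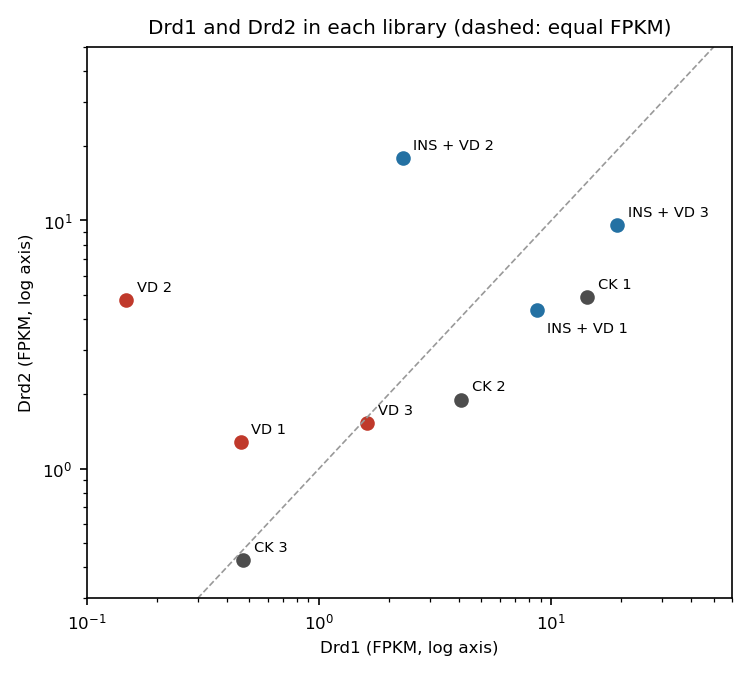
Drd1 (x axis) and Drd2 (y axis) in FPKM on log axes, 1 point per library, grey for CK, red for VD and blue for INS + VD, with a dashed line where both are equal. VD replicates 1 and 2 and INS + VD replicate 2 lie above the line, with ratios of 0.360, 0.0311 and 0.129, and the other 6 libraries lie below it.

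Adora2a, the adenosine receptor gene of indirect-pathway neurons, had 8.90, 2.16 and 2.12 FPKM across CK, 2.46, 3.51 and 5.47 across VD, and 5.96, 3.65 and 13.4 across INS + VD. The 3 groups overlapped, with the highest library in INS + VD and the next in CK, and the means were 4.40 ± 3.90, 3.81 ± 1.53 and 7.67 ± 5.10 FPKM (SD, n = 3 each). Gpr6 had 3.43, 2.22 and 0 FPKM across CK, 0.730, 0.0740 and 1.03 across VD, and 2.32, 2.34 and 4.54 across INS + VD. Every INS + VD library was above every VD library, and CK lay on both sides of VD. The level in VD replicate 2 corresponded to 3 fragments. It was thus at the floor of 3 fragments, about 0.0745 FPKM at the depth of CK replicate 1, that was set here for reading low values.

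Among the intracellular signalling genes, Ppp1r1b was the most abundant of all 9 genes, with 117, 65.6 and 133 FPKM across CK, 37.1, 28.6 and 20.9 across VD, and 139, 48.4 and 121 across INS + VD. All VD libraries were below all libraries of the other 2 groups, and CK and INS + VD overlapped. The means were 105 ± 35.1 FPKM (SD, n = 3) for CK, 28.9 ± 8.08 for VD and 103 ± 47.9 for INS + VD, so the gap from VD to either group was larger than the SD within them. This held although CK replicate 3, the library with the cerebellar genes, had the second highest Ppp1r1b level and the lowest Drd1 level of those 2 groups. DARPP-32 is also made outside the striatum, in neocortical, cerebellar and choroid plexus cells among others.

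Pde10a had 19.1, 11.7 and 12.9 FPKM across CK, 0, 2.98 and 5.84 across VD, and 18.1, 5.48 and 18.6 across INS + VD. The VD libraries were all below the CK libraries, and VD replicate 3 was just above INS + VD replicate 2. The means were 14.6 ± 4.0 FPKM (SD, n = 3) for CK, 2.94 ± 2.92 for VD and 14.1 ± 7.46 for INS + VD. The listed 0 belongs to VD replicate 1, and without that library the fitted log2 difference between VD and CK was -1.55 in place of -2.34.

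Rgs9, encoding a protein that shortens signalling through G proteins of the inhibitory class, had 8.49, 1.49 and 1.96 FPKM across CK, 5.86, 1.34 and 3.76 across VD, and 5.54, 4.10 and 9.28 across INS + VD. Its groups overlapped fully, with means of 3.98 ± 3.91, 3.66 ± 2.26 and 6.31 ± 2.67 FPKM (SD, n = 3 each). Rasd2, encoding the small GTPase Rhes, had 53.2, 54.7 and 28.5 FPKM across CK, 22.7, 8.69 and 42.6 across VD, and 94.6, 28.2 and 48.0 across INS + VD. VD held the 2 lowest libraries, but its replicate 3 lay within both other groups, and the means were 45.5 ± 14.7, 24.6 ± 17.0 and 56.9 ± 34.1 FPKM.

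Six3, encoding a homeobox transcription factor needed in mice for indirect-pathway neurons, had 1.03, 0 and 0 FPKM across CK, 0, 0 and 0 across VD, and 1.81, 2.73 and 4.69 across INS + VD. It was the only one of the 9 whose INS + VD libraries were all above all libraries of both other groups. Its INS + VD levels rested on 49, 78 and 129 fragments, and the floor of 3 fragments set here for reading low values was about 0.107 FPKM at the depth of CK replicate 1. Because VD is listed at 0 throughout, no fold difference of Six3 is given for the comparisons with VD. Outside the 9, the hypothalamic markers Hcrt and Oxt had the same order of libraries. Hcrt had 2.27, 0.783 and 2.03 FPKM across INS + VD, against at most 0.0996 elsewhere. Oxt had 1.84, 6.55 and 1.49 FPKM, against at most 0.827 elsewhere. For the hypothalamic markers Avp, Agrp and Pomc the groups overlapped. The part of hypothalamic RNA in the Six3 level was not tested.

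**Figure D2:**
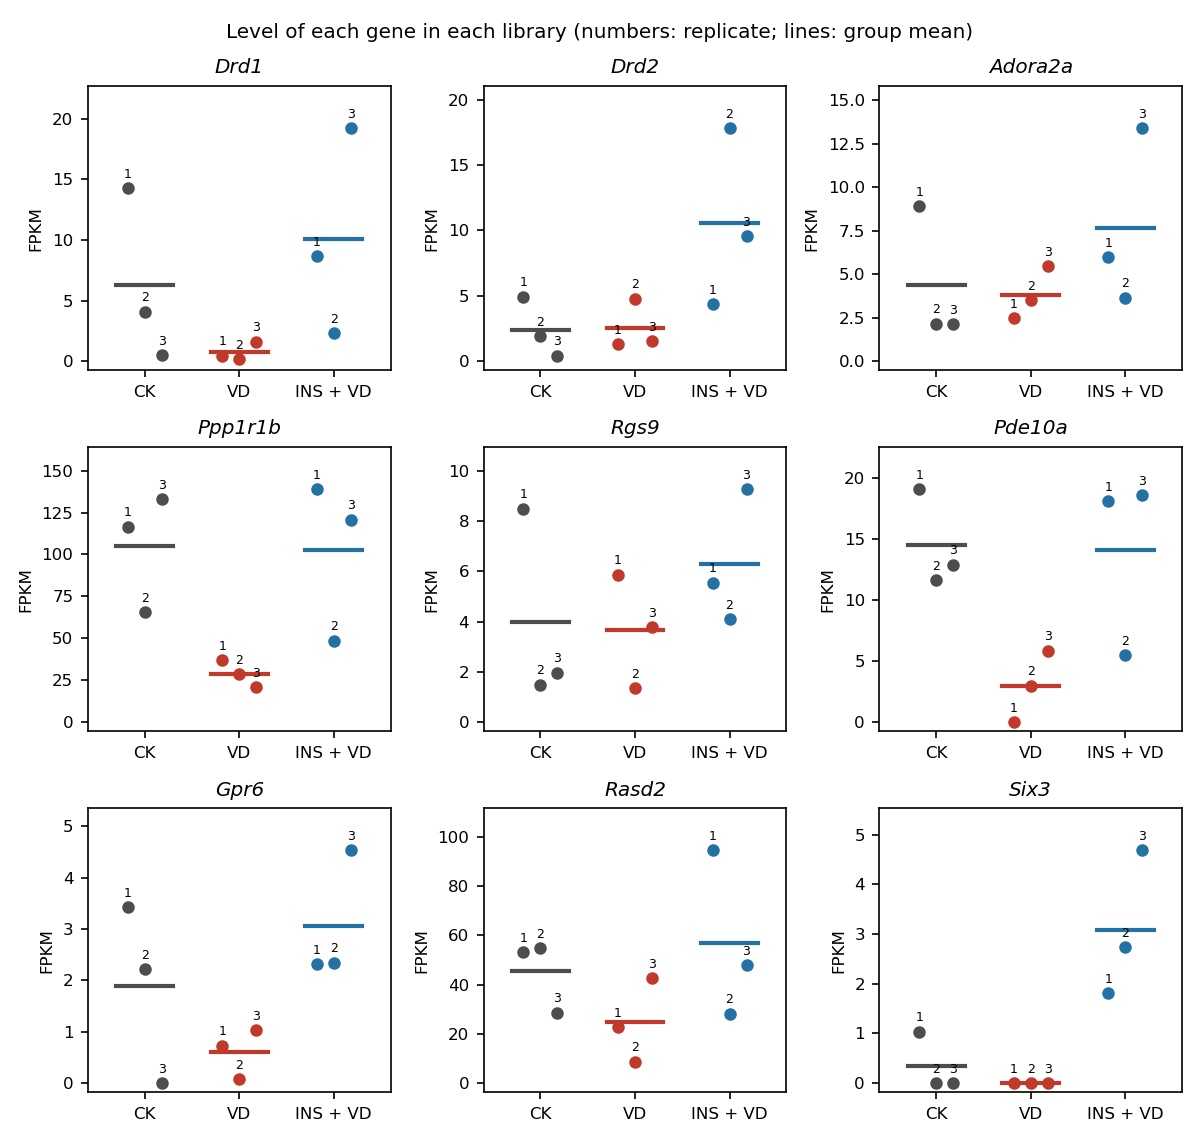
FPKM (y axis, linear, with 0 shown and scaled per gene) of each of the 9 genes in each library, with groups on the x axis, replicate numbers above the points and lines at the group means. For Ppp1r1b and Pde10a the VD points lie below every CK point, and for Drd1, Ppp1r1b, Gpr6 and Six3 every INS + VD point lies above every VD point.

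The genes did not vary as 1 block across libraries. INS + VD replicate 3 had the highest level of Drd1, Adora2a, Rgs9, Gpr6 and Six3, INS + VD replicate 1 that of Ppp1r1b and Rasd2, INS + VD replicate 2 that of Drd2, and CK replicate 1 that of Pde10a. The summed level of the 9 genes was 230, 144 and 179 FPKM across CK, 70.5, 50.1 and 82.7 across VD, and 280, 115 and 248 across INS + VD. Ppp1r1b and Rasd2 made up most of each sum, and without them it was 60.2, 23.5 and 17.9 FPKM across CK, 10.8, 12.8 and 19.2 across VD, and 46.8, 38.4 and 79.3 across INS + VD. The sum of all 9 in VD was below that of every other library, whereas CK replicate 3 fell within the VD range once the 2 genes were left out.

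To ask how the groups differed, log2(FPKM + 1) was fitted with limma over all 15099 genes that had at least 0.5 FPKM in at least 3 libraries. All 9 genes passed that filter. Six3 passed it only through the INS + VD libraries, where it was high, so the filter partly fixed its results for INS + VD. The 3 comparisons share libraries, so they are not independent of each other. With adjusted p at most 0.05 and a log2 fold change of at least 1 in size, limma called 0 genes in each comparison, which is 0% of those tested, and none of the 9. Without VD replicate 2 it called 24 genes for VD vs. CK and 16 when INS + VD was set against VD, none of them among the 9. The smallest adjusted p over all genes was 0.196 (VD vs. CK), 0.512 (INS + VD set against VD) and 1 (INS + VD set against CK), while 1925, 1417 and 275 genes had an unadjusted p under 0.05. With 3 libraries a group, the smallest two-sided p that exact permutation allows is 0.1.

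For VD vs. CK the fitted log2 differences were -1.57 for Drd1 (SE 0.88), 0.15 for Drd2 (SE 0.64), 0.02 for Adora2a (SE 0.57) and -0.64 for Gpr6 (SE 0.54). Among the signalling genes they were -1.80 for Ppp1r1b (SE 0.45), -2.34 for Pde10a (SE 0.70), 0.05 for Rgs9 (SE 0.59) and -1.05 for Rasd2 (SE 0.60). Thus 6 of the 9 values were negative, with Six3 among them, and 3 were near 0. The size of the Six3 value is set by the pseudocount. The median was -0.64 with Six3 and -0.85 without it, beside -0.02 over all genes tested. By unadjusted p and the same fold limit 2 of the 9 were past the limits, Ppp1r1b and Pde10a, both lower in VD, beside 8.78% of all genes. The same 2 genes had groups that did not overlap, beside 18% of all genes. Nothing is read from these shares, because the list was chosen on the same values. Leaving out CK replicate 3 gave 9 of 9 negative values, a median of -1.28 and 4 genes past the unadjusted limits. The median was -0.21 without CK replicate 1 and -0.37 without VD replicate 2, and a scaling of every library to the same sum gave 8 negative values and 1 positive.

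For INS + VD vs. VD the fitted log2 differences of the receptors were 2.40 for Drd1, 1.67 for Drd2, 0.74 for Adora2a and 1.34 for Gpr6, with the same SE as above because 1 spread served all comparisons. Those of the other genes were 1.70 for Ppp1r1b, 2.16 for Pde10a, 0.72 for Rgs9 and 1.26 for Rasd2. For Six3 the fit gave a positive value whose size, and so its place past the fold limit, is set by the pseudocount. All 9 were positive, with a median of 1.51 without Six3 and 1.67 with it, beside 0.04 over all genes. By the unadjusted rule 6 of the 9 were past the limits, namely Drd1, Drd2, Ppp1r1b, Pde10a, Gpr6 and Six3, beside 6.17% of all genes, and groups did not overlap for 4 of them, beside 15.2% of all genes. Without VD replicate 1, or without INS + VD replicate 3, 3 genes were past the unadjusted limits. These counts describe the choice of genes as much as the groups, and for Six3 also the filter, which it passed only through INS + VD.

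For INS + VD vs. CK the fitted log2 differences were 0.83 for Drd1, 1.81 for Drd2, 0.75 for Adora2a, 0.70 for Gpr6, -0.10 for Ppp1r1b, -0.18 for Pde10a, 0.77 for Rgs9, 0.21 for Rasd2 and 1.63 for Six3 (SE 0.35), the last of which also depends on the pseudocount, as 2 CK libraries were at 0. The median was 0.75 beside -0.00 over all genes. It was 1.30 without CK replicate 1, 0.48 without CK replicate 2, 0.09 without CK replicate 3 and 0.30 without INS + VD replicate 3, and Drd1 was at -0.03 without CK replicate 3. Drd2 and Six3 were past the unadjusted limits, 2 of 9 beside 0.94% of all genes, and only the groups of Six3 did not overlap, beside 11.1% of all genes. Without CK replicate 1 the count was 4, and without CK replicate 3 or without INS + VD replicate 2 it was 1. Six3 entered the fit only through INS + VD, the group where it was high, so nothing is read from its part in these counts. For Ppp1r1b and Pde10a, the 2 genes with the lowest VD values relative to CK, INS + VD and CK thus differed by less than the SE.

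**Figure D3:**
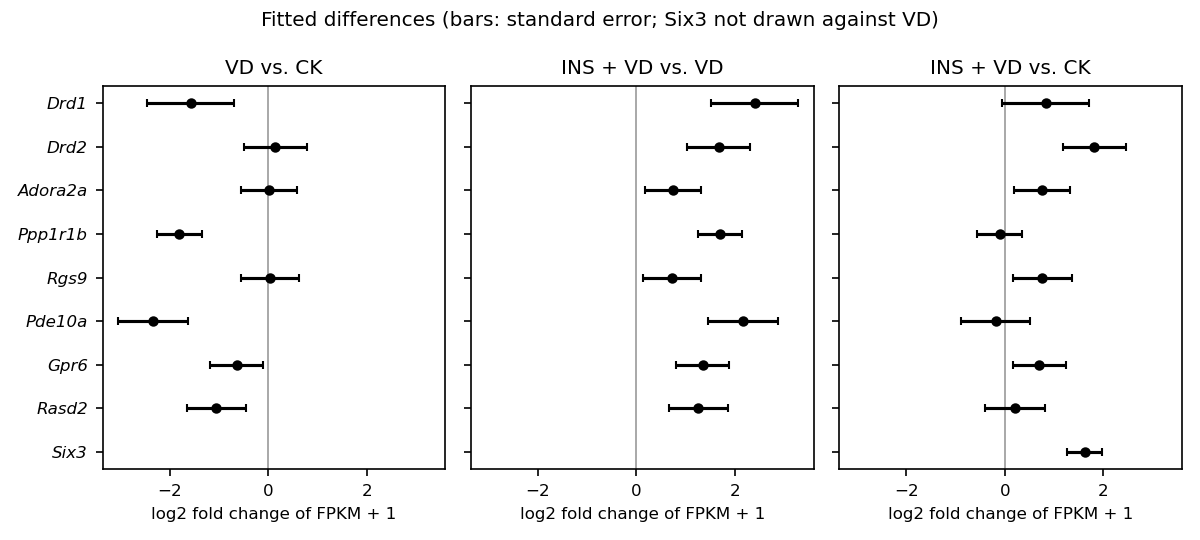
Fitted log2 fold change of FPKM + 1 (x axis) for each of the 9 genes (y axis) in the 3 comparisons, with bars of 1 standard error and Six3 left out of the comparisons with VD, where it is listed at 0. VD vs. CK values run from -2.34 for Pde10a to 0.15 for Drd2, all 8 values drawn for INS + VD vs. VD are above 0, and INS + VD vs. CK values run from -0.18 to 1.81.

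Other genes of the same cells and pathway, from lists drawn up with earlier results known, gave mixed values, and none had an adjusted p at most 0.05 in limma. The remaining dopamine receptors were low, with Drd3 at most 0.44 FPKM, Drd4 at most 1.45 FPKM and Drd5 at most 2.30 FPKM, and Drd5, the only one that passed the filter, had log2 differences of -0.24, 0.86 and 0.62 for VD against CK, INS + VD against VD and INS + VD against CK. Of 7 direct-pathway markers, VD was above CK for 4 and below it for 3, and INS + VD was above VD for 5 and below it for 2. For VD against CK, Slc35d3 was past the unadjusted limits at 1.54, beside 8.78% of all genes. Slc35d3 had 3.01, 0.482 and 1.48 FPKM across CK and 4.34, 2.33 and 19.3 across VD. Its groups thus overlapped, and its highest level was in VD replicate 3, a library with olfactory bulb genes. Of 3 indirect-pathway markers, Penk, encoding the enkephalin precursor, had 70.2, 43.8 and 40.0 FPKM across CK, 142, 101 and 132 across VD, and 52.7, 39.1 and 162 across INS + VD. Penk therefore was higher in every VD library than in any CK library, with a log2 difference of 1.30 (SE 0.50, adjusted p = 0.357 in limma), the opposite side from Ppp1r1b and Pde10a. Sp9, a transcription factor of indirect-pathway and olfactory bulb neurons, reached 95.0 FPKM in VD replicate 3, the library in which the olfactory bulb gene Sp8 was at 94.6 FPKM. The remaining indirect-pathway marker, Gpr52, was on the same side as Ppp1r1b and Pde10a. Its log2 differences were -0.40 for VD against CK and 0.91 for INS + VD against VD (SE 0.58).

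Of 19 other markers of striatal projection neurons that were tested, VD was above CK for 9 and below it for 10, with a median of -0.01, and INS + VD was above VD for 15 and below it for 4, with a median of 0.39. Pde7b, encoding a cAMP phosphodiesterase, had log2 differences of -1.31 for VD vs. CK and 1.88 once VD was the reference for INS + VD (adjusted p = 0.378 and 0.512 in limma). Foxp1, a transcription factor of striatal and cortical neurons, had -1.19 and 1.25. These 2 of the 19 were past the unadjusted limits in each of the 2 comparisons, beside 8.78% and 6.17% of all genes. Rxrg went the other way, with 1.85 for VD vs. CK and -0.67 once VD was the reference for INS + VD (SE 0.85), and was not past those limits.

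Of 19 dopamine and cAMP signalling partners tested, 11 were lower in VD than in CK and 15 higher in INS + VD than in VD, with medians of -0.42 and 0.82. Rgs7bp, encoding the membrane anchor of the protein family to which Rgs9 belongs, had 84.5, 78.1 and 61.0 FPKM across CK, 2.70, 26.6 and 23.3 across VD, and 73.5, 31.6 and 74.7 across INS + VD. Its VD libraries were below all others, with log2 differences of -2.47 (SE 0.71) for VD vs. CK and 2.07 once VD was the reference for INS + VD (adjusted p = 0.264 and 0.512 in limma). Ppp3ca, encoding the catalytic subunit of calcineurin, which removes the activating phosphate of DARPP-32, had -1.50 and 1.16. Rasgrp2, an exchange factor of Rap1, went the other way for VD vs. CK at 1.55 (SE 0.39, adjusted p = 0.205 in limma).

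Region and cell markers differed between the groups in both directions. General neuron markers, 6 genes in all, summed to 2011 to 2257 FPKM in CK, 1228 to 1449 FPKM in VD and 1488 to 2056 FPKM in INS + VD. The 5 neocortical markers summed to 13.6 to 153 FPKM in CK, 8.54 to 30.9 FPKM in VD and 14.5 to 131 FPKM in INS + VD. The neocortical gene Tbr1 was at 83.4, 71.1 and 0.40 FPKM across CK, 2.55, 0 and 12.7 across VD, and 60.5, 0.11 and 55.5 across INS + VD, so the 4 libraries with Tbr1 above 50 FPKM, as drawn in the map of levels, were also the 4 with the highest Drd1. The 6 markers of striatal cholinergic interneurons summed to 64.5 FPKM in VD replicate 2 and to at most 10.1 FPKM elsewhere, and among them Lhx8 was at most 0.74 FPKM in any library. Other lists lay on the opposite side, with log2 medians of 3.24 (VD against CK) and -2.95 (INS + VD against VD) over 4 olfactory bulb markers, 1.08 and -0.80 over 4 cholinergic markers, and 0.56 and -0.27 over 5 microglia markers. The astrocyte, oligodendrocyte and endothelial lists had medians of -0.19, -0.58 and -0.32 (VD against CK), and of -0.25, 0.45 and -0.14 (INS + VD against VD). The oligodendrocyte medians hide a wide spread. Those markers summed to 3734 to 4633 FPKM in CK, to 1123, 13753 and 1720 FPKM in VD replicates 1 to 3, and to 6237, 7565 and 1208 FPKM in INS + VD. Gfap, the astrocyte filament gene, had 1.56 (SE 0.29, adjusted p = 0.196 in limma) and -0.74. The astrocyte marker Slc1a2 went the other way, with -1.80 (SE 0.93) and 1.84. Of the remaining astrocyte markers, Slc1a3 and Aqp4 were at -0.23 and -0.19 for VD against CK, and Aldh1l1 was at 0.57. Over 5 hypothalamic markers the medians were 0.16 (VD against CK), 0.83 (INS + VD against VD) and 1.14 (INS + VD against CK). All 5 were positive in both comparisons of INS + VD, while their summed levels overlapped between groups. For VD against CK and INS + VD against VD, medians were 0.92 and 1.21 over 6 choroid plexus markers. They were 0.25 and 0.29 over 7 thalamic, -1.35 and 0.00 over 4 cerebellar, and -0.59 and 0.47 over 6 hippocampal markers. The part of region or cell content in the differences was not tested.

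**Figure D4:**
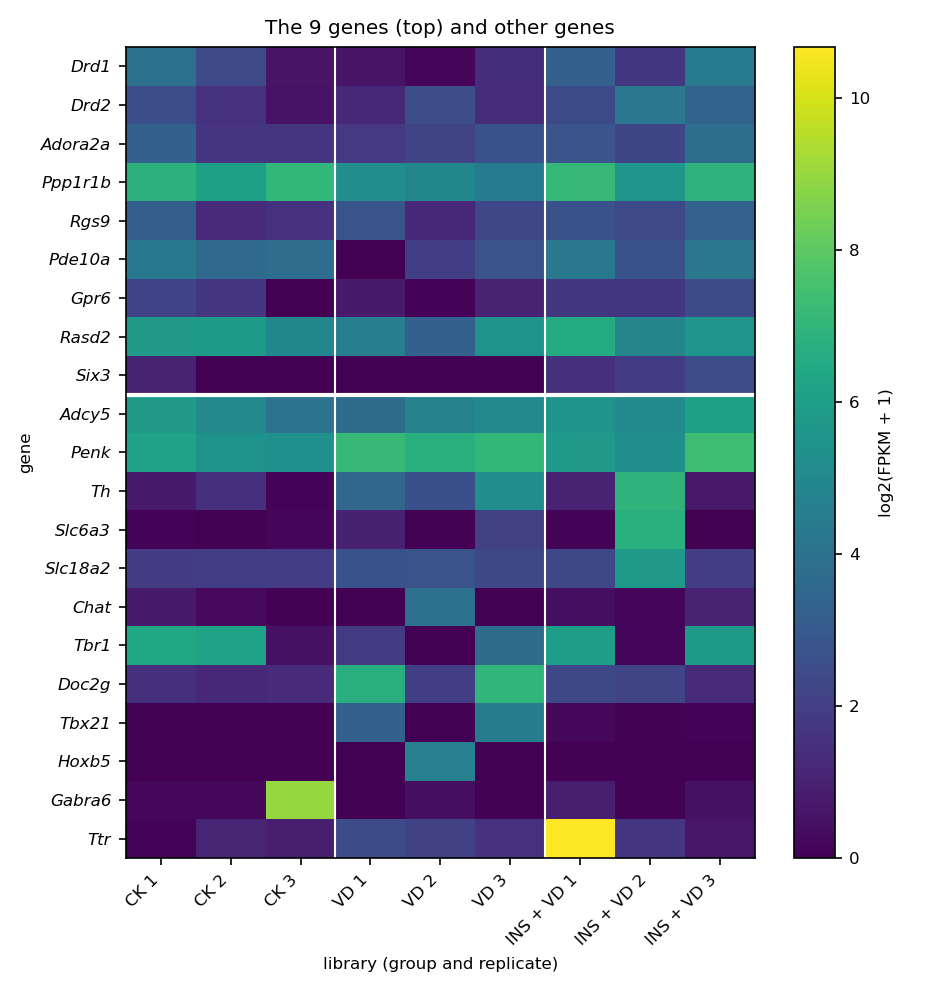
Level as log2(FPKM + 1) (colour) of the 9 genes, above the thick white line, and of other genes (y axis) in the 9 libraries (x axis). Single libraries stand out for Th, Slc6a3 and Slc18a2 in INS + VD replicate 2, Gabra6 in CK replicate 3, Hoxb5 and Chat in VD replicate 2, Doc2g in VD replicates 1 and 3, and Ttr in INS + VD replicate 1.

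Finally, the genes whose pattern over the 9 libraries was most like that of the 9 were sought among 13633 genes with a mean of at least 1 FPKM. Likeness was the root mean square difference between a gene's log2(FPKM + 1), centred on its own mean, and the mean centred profile of the 9, so that 0 is the same profile. The nearest 8 were Lrfn1 (0.31), Zfhx2 (0.32), Iqgap2 (0.34), Wbp11 (0.34), Tmem8b (0.36), Stpg1 (0.37), Adcy5 (0.37) and Dcc (0.37). Of these Adcy5 encodes the main adenylyl cyclase of striatal neurons and had 52.8, 32.0 and 15.6 FPKM across CK, 12.7, 26.7 and 31.3 across VD, and 44.8, 33.1 and 66.5 across INS + VD. Its VD and CK libraries overlapped, and all its INS + VD libraries were above all its VD libraries. Among the 9 themselves the distance ran from 0.37 for Gpr6 to 0.90 for Drd2 and 0.91 for Pde10a, although each of the 9 is part of that mean. Thus 7 genes outside the list, all those named but Dcc, were nearer to its mean profile than Gpr6, the nearest of the 9.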

How the data were processed

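RNA-seq was measured in 9 rat hippocampal libraries, 3 per group as labelled. HISAT2 was used by the authors for alignment, and they deposited FPKM per gene; counts were not used here. The submitters' processing notes name the mouse builds GRCm38 and mm10, whereas gene identifiers are rat, so positions were not used apart from the strand of Six3. Rows were matched by symbol, and 0 sample columns were left out. The 9 genes and all lists were chosen with earlier results of these data known. FPKM + 1 was log2-transformed, a gene entered at 0.5 FPKM or more in 3 of 9 libraries, and 1 model without a replicate block was fitted to all libraries (limma 3.58.1 with trend, R 4.3.3), with Benjamini-Hochberg adjustment over all genes. The code was tested on simulated data. Python 3.11.15 with pandas 2.3.3 and matplotlib 3.10.9 served the rest. All 9 genes are named. Listed genes were mostly taken from the 3 smallest p of their list in a comparison, but not all of those are named, so they are a selection. Others (Th, Slc6a3, Slc18a2, Ddc, markers that single out a library and members of a list shown beside them) were named after their values were seen. Alternatives changed the pseudocount (0.1), filter, scaling, trend, block and libraries. Metabolite and tissue-staining data were not used here.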

Additional observations from a re-analysis of the deposited data

How the results depend on the processing

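Adjusted calls over all genes ranged, with single libraries left out, from 0 to 24 (VD vs. CK), from 0 to 16 (INS + VD against VD; the highest of each without VD replicate 2) and from 0 to 0 (INS + VD against CK). Unadjusted calls ranged from 906 to 2550, from 384 to 2225 and from 89 to 242, calls among the 9 genes from 2 to 4, from 3 to 6 and from 1 to 4, and their median log2 difference from -1.28 to -0.21, from 1.42 to 1.71 and from 0.09 to 1.30. With a pseudocount of 0.1, 234 genes were called unadjusted for INS + VD vs. CK, against 142. Omitting CK replicate 3 together with the replicates 2 of VD and INS + VD, chosen after seeing the data, gave 1 adjusted call when VD was compared with CK and 1 when INS + VD was compared with VD. It gave 1474 and 68 unadjusted calls for INS + VD against VD and against CK, and among the 9 genes 4 calls in VD against CK and 1 in INS + VD against CK. With a replicate block, 1384, 927 and 187 genes were called unadjusted, and 2, 5 and 2 of the 9, with 0 adjusted calls. Deviations of same-numbered libraries correlated at -0.32 to 0.38 over 9 pairs and of different-numbered ones at -0.36 to 0.39 over 18. These ranges overlap, so no pairing by number was seen. With 3 libraries a group, the ranges cannot show that there was none. Scaling to the same sum moved the median of all genes to -0.19 (VD vs. CK) and 0.22 (INS + VD vs. VD), and median centring to 0.16 and -0.12. Higher against lower unadjusted calls were 588 to 738 and 549 to 383 as reported, 377 to 1039 and 847 to 195 with the same sum, and 864 to 595 and 425 to 534 with median centring. Values of the 9 genes for INS + VD vs. VD were positive in all 17 alternatives, a direction that their choice partly fixes. In some alternatives the sign turned for Drd2, Adora2a and Rgs9 in VD vs. CK, and for Drd1, Ppp1r1b, Pde10a and Rasd2 in INS + VD vs. CK. Low fragment numbers limit Drd1, Gpr6 and Six3 in VD and in CK replicate 3, and Six3 also in CK replicate 2.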
